A study of Mus musculus with 2 samples.

Results

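The sterol genes described here are 9 of the 32589 genes listed for each library, read by symbol. Of them, 7 encode enzymes of cholesterol synthesis: Hmgcs1, Idi1, Fdft1, Sqle, Lss, Cyp51 and Msmo1. Insig1 and Srebf2 are not enzymes but regulators of the pathway. Each symbol matched 1 row, and all 9 had unique molecular identifiers (UMIs, tags that count each captured transcript a single time) in both libraries.

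The mice were C57BL/6 and were gavaged with vehicle or with corticosterone, the glucocorticoid that rodents mainly use, and their prefrontal cortex was taken. Cells were freed from the tissue with Liberase TL at 37 °C and sorted by flow cytometry as CD45low CD11b+, the usual gate for microglia. Each group was 1 GEXSCOPE library, so treatment and library cannot be told apart, and no difference between groups could be tested. Dose, duration, age, sex and the number of mice behind a library are not given in the sources used here, and the deposited files carry other group words than the sample titles, so every direction rests on the sample records that list each file.

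After filtering, 10500 vehicle and 17883 corticosterone cells remained, with median depths of 3220.5 and 3961 UMIs. The libraries shared 101 barcodes, 0.962% of the vehicle cells. Clusters were named by marker genes, giving 7836 vehicle and 15212 corticosterone microglia-like cells, 1049 and 796 cells like border-associated macrophages (macrophages of the meninges and vessels), 461 and 397 neutrophil-like cells, and 164 and 85 erythroid-like barcodes. All 10 microglia markers were present in the microglia-like cells, whose median mitochondrial share was 2.45% in the vehicle and 4.10% in the corticosterone library. Different clusters held most of that class in each library: cluster 1 held 7236 vehicle and 247 corticosterone cells, and cluster 0 held 183 and 9935. Other marker lists differed between the libraries within these cells as well, and in both directions. The 7 endothelial markers had a summed 40.2 against 5.42 CPM (a gene's UMIs scaled to a fixed library total) and 9 neutrophil markers 894 against 690. The 7 monocyte markers had 17.4 against 26.7 and 9 dendritic cell markers 47.9 against 60.2. Of 8 T cell markers, 3 were detected in both libraries and Cd3e, Cd3g and Trbc2 were at 0, with a sum of 1.40 against 0.915. Whether these differences had a part in the values below was not tested.

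Cholesterol synthesis starts from acetyl-CoA and runs through mevalonate and isoprenoids to squalene, which is then oxidised, closed into lanosterol and trimmed to cholesterol. The genes are switched together by SREBP2, the product of Srebf2: when membrane sterol is scarce, the escort protein SCAP carries SREBP2 to the Golgi, where proteases release its DNA-binding part, and when sterol is plentiful the INSIG proteins hold SCAP back. The brain makes its own cholesterol because plasma lipoproteins do not cross the blood-brain barrier, and glia pass it on bound to apolipoprotein E.

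Some of these genes have letters before their start that resemble the sites SREBP2 is known to read. RefSeq promoters (GRCm38.p6, 250 bases before to 50 after the annotated start) were matched for 7 of the 9 genes, all but Sqle and Fdft1. The core of the sterol regulatory element was searched as TCACNCCA on both strands, and it lay in 3 of the 7 promoters, those of Hmgcs1, Msmo1 and Srebf2, against 4.36% of 32851 promoters of the same length. It lay in 0 of 15 promoters of other synthesis genes. CCAAT, the box bound by the SREBP partner NF-Y, was in 7 of 7 against 37.4% of all promoters, and in 11 of the 15. CACGTG, an E-box that can also bind SREBPs, was in 1, that of Insig1, against 7.15% of all, and in 3 of the 15. Matches of these motifs may share letters, and a match describes the letters of the window only. The stretches below show the match of an enzyme gene and of the regulator gene, both on the plus strand of GRCm38.p6, with the TCACNCCA match in capitals. That of Hmgcs1 is chr13:119690101-119690260 and that of Srebf2 is chr15:82147019-82147178, and the match begins 137 and 162 bases before the RefSeq start, respectively.
Hmgcs1: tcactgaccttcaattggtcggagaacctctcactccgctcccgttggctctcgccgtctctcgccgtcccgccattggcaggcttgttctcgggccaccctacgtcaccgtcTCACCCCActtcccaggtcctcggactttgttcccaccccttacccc
Srebf2: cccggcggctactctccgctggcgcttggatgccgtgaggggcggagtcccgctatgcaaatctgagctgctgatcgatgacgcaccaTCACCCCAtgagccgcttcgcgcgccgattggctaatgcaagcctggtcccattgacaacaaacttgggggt

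In the main scaling, the sum of the 9 sterol genes did not differ between the libraries beyond counting error in microglia-like cells. Their UMIs, summed over these cells and scaled to CPM, came to 106 CPM in the vehicle library (3410 UMIs) and 105 CPM in the corticosterone library (7448 UMIs). The log2 ratio of corticosterone over vehicle was -0.02, with a 95% interval of -0.08 to 0.04. It was 0.07 with edgeR TMM factors and 0.09 with DESeq2 size factors, which moved the median of all genes by 0.09 and 0.11. Shifted by as much as the ratio, the interval would lie above 0 under both, so the flat sum holds for the main scaling only. Intervals here and below come from counting error alone (exact Poisson for a level, exact conditional for a ratio, exact binomial for a share of cells) and hold no spread between animals. Behind the flat sum, 5 genes were higher and 4 lower in the corticosterone library, with a median log2 ratio of 0.08. Over the 6593 genes with a mean of at least 20 CPM the median was -0.00, and the central 90% ran from -0.57 to 0.60. The plot of levels by gene shows both libraries.

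**Figure D1:**
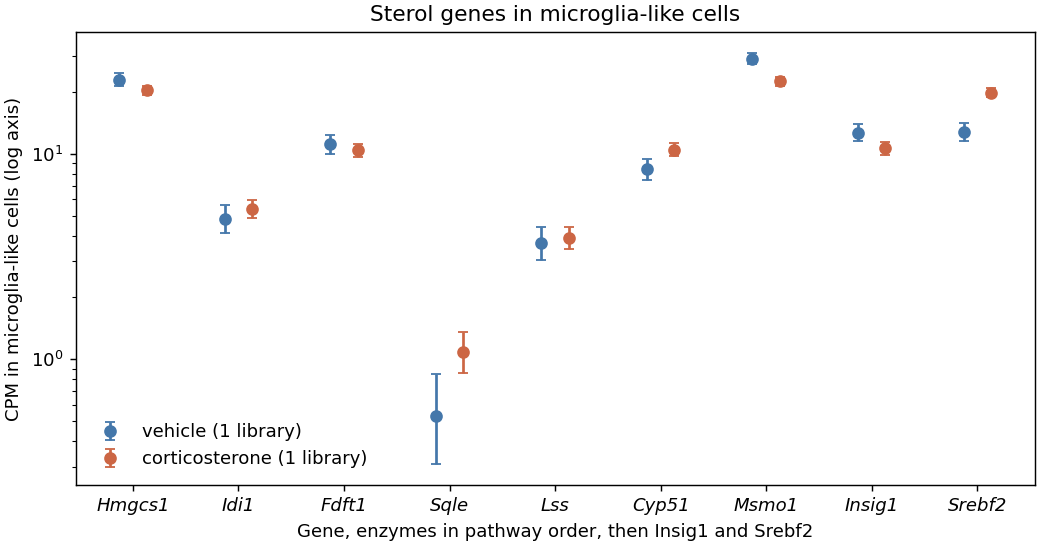
Level of each sterol gene in microglia-like cells, in CPM on a log axis, for the vehicle library (blue) and the corticosterone library (orange). Points are 1 library each and bars are exact 95% Poisson intervals. Srebf2 goes from 12.8 to 19.9 CPM with bars well apart, Sqle sits lowest at 0.530 and 1.08 CPM, and Fdft1, Idi1 and Lss have overlapping bars.

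Srebf2 (ENSMUSG00000022463, chr15:82147181-82205379 in GRCm38), the gene of the pathway's transcription factor, stood apart most clearly. It had 411 UMIs and 12.8 CPM (11.6 to 14.1) in the vehicle library and 1414 UMIs and 19.9 CPM (18.9 to 20.96) in the corticosterone library. The log2 ratio was 0.64 (0.48 to 0.80), a 1.55-fold higher level, and 95.4% of the 6593 genes had a smaller ratio. Its mean over both libraries lay under 20 CPM, so it was outside the count of genes past 1.5-fold given below.

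Insig1 (ENSMUSG00000045294, chr5:28071363-28078662), which encodes the retention protein that keeps SREBP2 in the endoplasmic reticulum and is itself a target of SREBP2, went the other way. Its level was 12.7 CPM in the vehicle and 10.6 CPM in the corticosterone library, from 408 and 756 UMIs, and the log2 ratio was -0.26 (-0.43 to -0.08). That interval included 0 under either other scaling tried, given below.

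Among the enzymes of the early pathway, Hmgcs1 (ENSMUSG00000093930, chr13:119690379-119708260), the synthase that joins acetyl groups ahead of mevalonate, had 739 UMIs and 23.0 CPM in the vehicle library and 1447 UMIs and 20.4 CPM in the corticosterone library. The log2 ratio was -0.18 (-0.31 to -0.05). Idi1 (ENSMUSG00000058258, chr13:8885501-8892451), the isomerase that supplies the isoprenoid building block, stood at 4.83 and 5.42 CPM, with a log2 ratio of 0.17 (-0.11 to 0.44). Fdft1 (ENSMUSG00000021273, chr14:63145150-63179578), squalene synthase, the first enzyme committed to sterols, stood at 11.1 and 10.4 CPM, with a log2 ratio of -0.09 (-0.28 to 0.09). For Idi1 and Fdft1 the libraries did not differ beyond counting error in the main scaling, which for Idi1 did not hold with DESeq2 size factors, given below.

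Of the enzymes after squalene, Sqle (ENSMUSG00000022351, chr15:59315077-59331192), squalene epoxidase, a second control point of the pathway, was barely detected in microglia-like cells. It had 17 UMIs over 7836 vehicle cells and 77 over 15212 corticosterone cells, 0.530 (0.309 to 0.848) and 1.08 (0.855 to 1.35) CPM. The log2 ratio of 1.03 was the highest of the 9 and the least precise (0.26 to 1.88). Lss (ENSMUSG00000033105, chr10:76531588-76557138), which closes the ring to give lanosterol, had 3.68 and 3.90 CPM and a log2 ratio of 0.08 (-0.23 to 0.41).

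Cyp51 (ENSMUSG00000001467, chr5:4081145-4104746), lanosterol demethylase, was higher in the corticosterone library, at 10.5 against 8.41 CPM, with a log2 ratio of 0.32 (0.12 to 0.53). Msmo1 (ENSMUSG00000031604, chr8:64718139-64733792), the methylsterol oxidase that acts after it, was lower, at 22.6 against 29.1 CPM from 1606 and 935 UMIs. Its log2 ratio of -0.37 (-0.48 to -0.25) was the lowest of the 9. Cyp51 and Msmo1, both of the arm that trims lanosterol, differed in opposite directions.

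Of the 9 genes, 3 had a ratio interval above 0 (Cyp51, Sqle and Srebf2), 3 below 0 (Hmgcs1, Insig1 and Msmo1) and 3 including 0. The calls on both sides depend on the scaling. With DESeq2 size factors Hmgcs1 was -0.07 (-0.20 to 0.06) and Insig1 -0.15 (-0.32 to 0.03). With edgeR TMM factors both intervals also included 0, and Msmo1 alone stayed below 0 under both. Cyp51, Sqle and Srebf2 stayed above 0 under both, and with DESeq2 size factors Idi1 was above 0 too, at 0.27 (0.001 to 0.55). Counting error alone separates the libraries for most genes at this depth: of 9658 genes at a mean of at least 5 CPM, 34.8% had an interval above 0 and 36.8% below 0. Only Hmgcs1 and Msmo1 reached a mean of 20 CPM, and neither was past 1.5-fold in either direction, where 5.29% of the 6593 genes at that level were past it upward and 4.78% downward. At a mean of at least 5 CPM, 7 of the 9 genes were counted and 1, Srebf2, was past 1.5-fold higher, against 5.92% of 9658 genes, and 0 were past it lower, against 6.62%.

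Of the other synthesis genes, 12 reached a mean of 5 CPM, and 8 of them had a higher level in the corticosterone library and 4 a lower one. The list of 22 synthesis genes holds 15 that are not among the 9. The median log2 ratio of the 12 was 0.24, against -0.01 over all 9658 genes at that level, and 7 of the 12 had intervals above 0 and 1 below, where 34.8% and 36.8% of all those genes did. Past 1.5-fold there was 1 gene of the 12, Dhcr7, the last reductase of one branch, at 15.8 and 26.1 CPM with a log2 ratio of 0.72 (0.58 to 0.87). Acat2 and Mvd, enzymes at the head and the middle of the mevalonate arm, had ratios of 0.52 and 0.44, and Fdps, which makes farnesyl diphosphate, 0.25.

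The arm after lanosterol was mixed. Ebp, the sterol isomerase, had 71.8 and 93.0 CPM and a log2 ratio of 0.37. Lbr and Tm7sf2, both sterol reductases, had ratios of 0.28 and 0.46. Sc5d, the desaturase, was lower at 15.0 and 11.8 CPM, a log2 ratio of -0.35 (-0.52 to -0.19), so that Sc5d, Msmo1 and Hmgcs1 were the 3 synthesis genes with an interval below 0. Mvk, Pmvk, Ggps1, Nsdhl and Hsd17b7 had ratios between -0.11 and 0.12, with intervals that included 0.

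**Figure D2:**
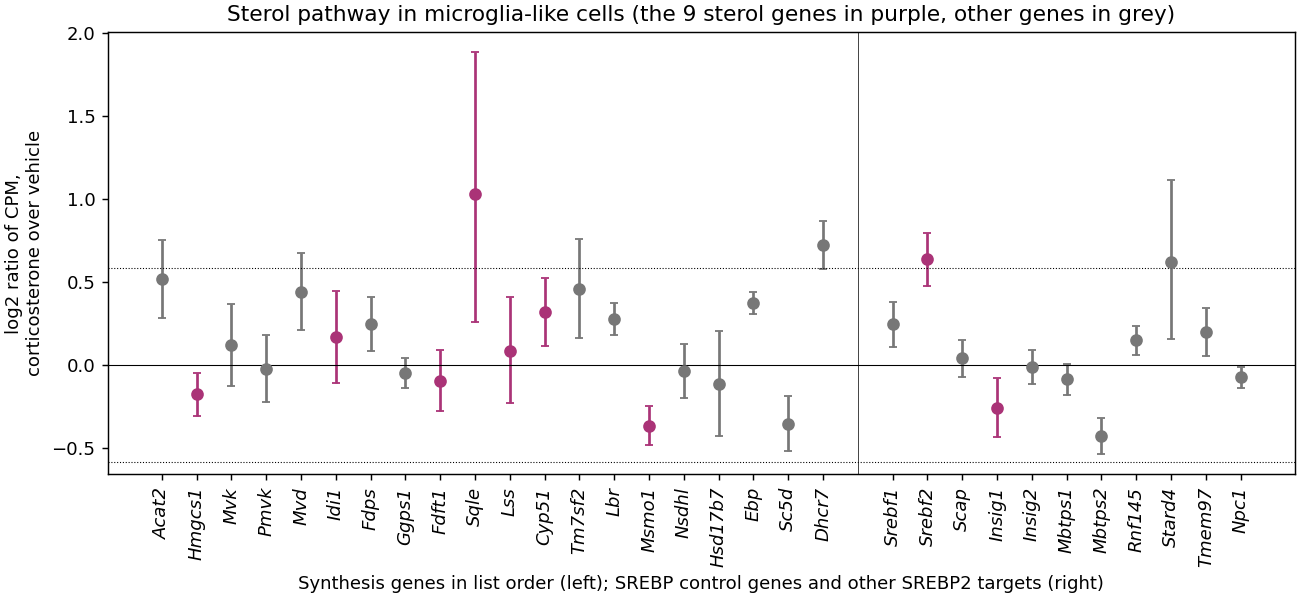
Log2 ratio of CPM, corticosterone over vehicle, in microglia-like cells for synthesis genes in list order (left), then SREBP control genes and other SREBP2 targets (right), with exact 95% intervals from counting error and 1 library per group. The 9 sterol genes are purple and other genes grey, and dotted lines mark 1.5-fold. Most points lie between the dotted lines, Srebf2, Dhcr7, Stard4 and Sqle lie above the upper line, and Sqle has the widest bar.

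The 9 genes of SREBP control, a list that includes Srebf2 and Insig1, had a median log2 ratio of -0.01. It was 0.08 with edgeR TMM and 0.10 with DESeq2 size factors. Of the 9 intervals, 3 lay above 0 and 3 below, near the 34.8% and 36.8% of all genes at a mean of at least 5 CPM. Srebf2 had the largest ratio of this list. Srebf1, the gene of the sister factor that favours fatty acid synthesis, had 0.24, and Rnf145, a sterol-responsive ubiquitin ligase, 0.15. Scap, the escort, had 0.04, and Insig2, the second retention gene, -0.01, against -0.26 for Insig1. The protease genes Mbtps1 and Mbtps2 had -0.09 and -0.43.

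Among targets of SREBP2 outside synthesis, Stard4, a sterol carrier, had 49 and 167 UMIs and a log2 ratio of 0.62 (0.16 to 1.11). Tmem97 and Npc1, both of sterol transport, had ratios of 0.20 and -0.07. Stard4 thus lay nearer to Srebf2 than to Insig1, Hmgcs1 or Msmo1, which are also known SREBP2 targets. Synthesis genes went both ways, so Stard4 was no exception. Of the 22, 17 reached a mean of 5 CPM. Of these, 8 had an interval above 0, among them Acat2, Cyp51 and Dhcr7, and 3 below, where 34.8% and 36.8% of all genes did.

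The neighbouring lipid lists were counted at a mean of 20 CPM unless stated. Apoe, the carrier that exports cholesterol, stood at 436 and 4475 CPM, a log2 ratio of 3.36 (3.34 to 3.38). The efflux transporter genes Abca1 and Abcg1 were lower in the corticosterone library, with ratios of -0.54 and -0.24, and the efflux and LXR list had a median of -0.16. Abca7, a transporter under that limit that is named after its values were seen, was higher, at 10.2 and 18.0 CPM with a ratio of 0.81 (0.64 to 0.99), and the list median at 5 CPM was -0.09. In the 5 of 13 fatty acid genes at that limit the ratios ran from -1.12 for Scd2, a desaturase, to 0.48 for Acly, which makes cytosolic acetyl-CoA, with a median of -0.25, which was 0.07 over the 8 genes at 5 CPM. The uptake and storage list ran from -0.31 for Lrp1 to 0.66 for Plin2, a lipid droplet protein, with a median of 0.18. Cyp27a1, which makes an oxysterol, had 0.55, and Ch25h, which makes another, had 21 and 33 UMIs and a ratio of -0.49 (-1.33 to 0.37).

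Per cell, the sterol genes were sparse. To set both libraries at 1 depth, each cell was thinned to 1000 UMIs, which left 7249 vehicle and 15117 corticosterone microglia-like cells and left out 587 and 95 shallower ones. The share with a UMI of Srebf2 was then 1.13% (0.901 to 1.40) in the vehicle library and 1.98% (1.77 to 2.22) in the corticosterone library, and before thinning it was 4.73% and 8.28%. It was the only one of the 9 genes whose intervals in the libraries did not overlap, and this held at 2000 UMIs too. That rule is stricter than the ratio intervals used for levels. At 2000 UMIs the intervals overlapped only narrowly for Msmo1, at 5.18% (4.64 to 5.77) and 4.35% (4.03 to 4.70). The same was so for Insig1, at 2.50% (2.13 to 2.93) and 1.92% (1.70 to 2.15). At 1000 UMIs Msmo1 was found in 2.58% and 2.26% of cells and Hmgcs1 in 2.33% and 2.18%. Sqle was found in 0.0690% and 0.112%, or 5 and 17 cells.

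No class in these libraries gave a clean background share for these genes. Erythroid-like barcodes carried the 10 microglia markers at a median of 0.816 and 0.833 of their microglia-like level, so they are no empty reference. In the 136 vehicle and 83 corticosterone erythroid-like barcodes left after thinning, Srebf2 was found in 2.21% (0.457 to 6.31) and 1.20% (0.0305 to 6.53). Sqle was found in 0 of 136 and 0 of 83, which allows shares of up to 2.21% and 3.61% at a limit of 3 counts, and 2.68% and 4.35% at the exact binomial bound. These limits contain the microglia-like shares, so for Srebf2 and Sqle the classes cannot be told apart by shares of cells, and a part of free RNA was not tested.

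At least 1 of the 9 genes was found in 9.90% of vehicle and 10.1% of corticosterone microglia-like cells at 1000 UMIs, and at least 2 of them in 0.414% and 0.417%. The mean number found per cell was 0.103 and 0.105. An enzyme was found more often in cells with a UMI of another enzyme than in the rest for 4 of the 7 enzymes in the vehicle library and for 6 in the corticosterone library. The intervals of these shares were apart for 0 of 7 in either library. By this rule of intervals that do not overlap, a shared level from cell to cell was not detectable at this depth.

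In the main scaling, the sum did not differ between the libraries beyond counting error at any depth of the cells. Cells of 500 to 2000 UMIs had a sum of 113 CPM in the vehicle and 102 in the corticosterone library, those of 2000 to 4000 had 110 and 108, those of 4000 to 8000 had 105 and 105, and those of 8000 or more had 101 and 101. Each of the 4 ratio intervals included 0, and that of the shallowest cells was wide, at -0.16 (-0.50 to 0.17).

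Within clusters the sum was less precise, since the minority library held few cells. Cluster 1, mostly vehicle, had sums of 106 and 98.7 CPM, a log2 ratio of -0.10 (-0.41 to 0.19). Cluster 0, mostly corticosterone, had 118 and 103 CPM, a ratio of -0.19 (-0.52 to 0.16). In cluster 2 the sums were 108 and 110 CPM, a ratio of 0.03 (-0.31 to 0.39). These intervals included 0 but are too wide to show that the sum was flat. For Srebf2 the few cells of the minority library gave little precision: the levels were 12.5 and 17.7 CPM in cluster 1, 16.1 and 19.8 in cluster 0, and 21.9 and 19.0 in cluster 2, where the vehicle value rests on 15 UMIs. All 3 of these ratio intervals included 0.

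Microglia-like cells were clustered again with genes centred and scaled within each library. That step takes out the mean difference between the libraries, so their mixing in the sub-clusters follows from it and is no result. The largest sub-cluster, with 4786 vehicle and 9276 corticosterone cells, had sums of 103 CPM in both, and the next, with 2634 and 4909 cells, had 117 and 112. A sub-cluster led by interferon response genes had 88.5 and 102 CPM, and one that carried the neutrophil granule genes Camp and Ngp had 122 and 89.3. In the main scaling, the ratio interval of each of these 4 sums included 0. Srebf2 was higher in the corticosterone library in the larger pair, with log2 ratios of 0.70 (0.52 to 0.89) and 0.49 (0.13 to 0.87). In the interferon sub-cluster its ratio was 0.96 (-0.14 to 2.32), and in the granule gene sub-cluster -0.49 (-1.68 to 0.68).

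The border-associated macrophage-like cells carried more of these transcripts than the microglia-like cells. All 9 genes had a higher level there in both libraries. The interval of the ratio between the classes lay above 0 for 8 in the vehicle and 7 in the corticosterone library. The share of all genes that differ between these classes was not counted. Whether the difference is particular to the sterol genes was therefore not tested. Sqle differed most, at 6.71 against 0.530 CPM in the vehicle library, 12.7-fold, and 10.5 against 1.08 CPM in the corticosterone library, 9.70-fold. Idi1 was 2.59-fold and 3.37-fold higher, Insig1 1.48-fold and 2.35-fold, and Msmo1 1.30-fold and 1.86-fold. Hmgcs1 differed least in the vehicle library, 1.07-fold (log2 interval -0.11 to 0.30), and was 1.21-fold higher in the corticosterone library.

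The macrophage-like cells were deeper, with a median depth of 6626 and 6703 UMIs, while microglia-like cells had 3192 and 3999. Thinned to 1000 UMIs, Sqle was found in 0.785% (0.340 to 1.54) and 1.16% (0.531 to 2.187) of them, above the microglia-like intervals of 0.0224 to 0.161% and 0.0655 to 0.180%. Of all Sqle UMIs in the vehicle library, 64.0% came from macrophage-like cells and 14.9% from microglia-like cells. The macrophage-like cells were 9.99% of cells there, and being deeper they held a larger part of the UMIs of all genes, 10873195 of 49325067. In the corticosterone library 40.0% came from the macrophage-like cells and 42.8% from microglia-like cells. The former were 4.45% of cells and held 6850431 of 85103539 UMIs of all genes. Over all cells of a library, Sqle read 2.31 and 2.12 CPM, a log2 ratio of -0.13 (-0.47 to 0.22), although it was higher in the corticosterone library within each of these classes. Microglia markers lay in the macrophage-like cells at a median of 0.848 and 0.667 of their microglia-like level, and their part in these values was not tested.

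**Figure D3:**
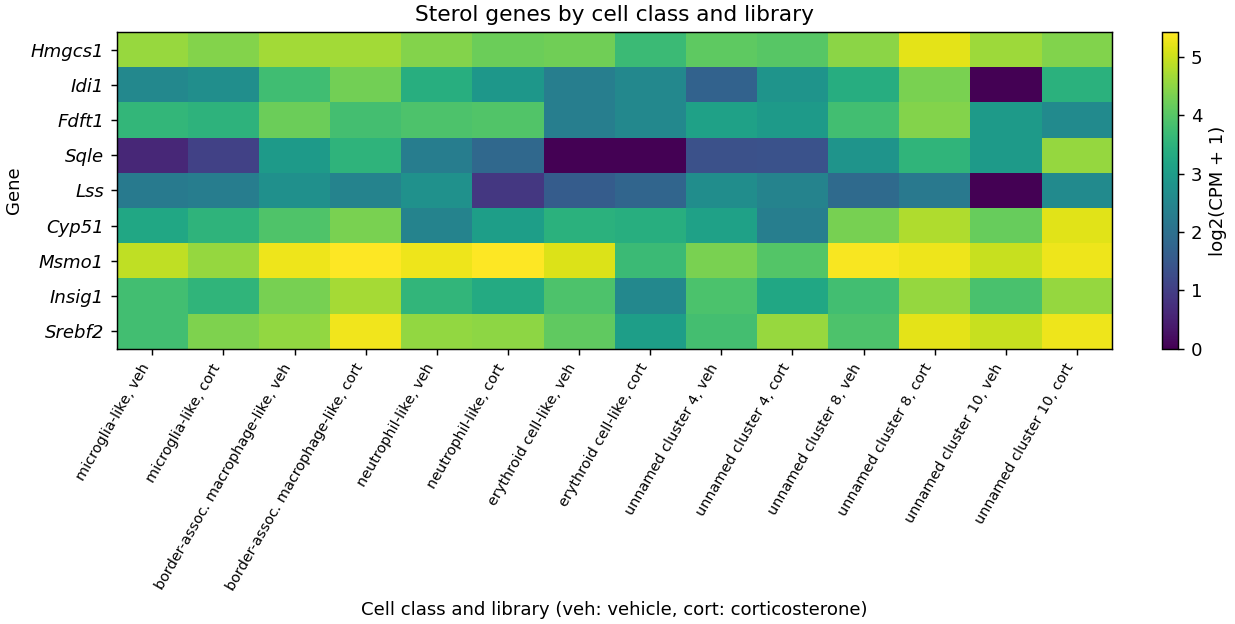
Level of each sterol gene as log2(CPM + 1), by cell class and library (veh, vehicle; cort, corticosterone), with 1 library per group and lighter colours for higher levels. Sqle is darkest in microglia-like and erythroid-like columns and brighter in the macrophage-like ones, where it reaches 6.71 and 10.5 CPM, and Srebf2 is brighter in the corticosterone column of the macrophage-like cells, at 39.0 against 22.5 CPM.

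Within the macrophage-like cells, 7 of the 9 genes had a higher level in the corticosterone library and 2 a lower one. Their sum was 160 CPM in the vehicle and 196 CPM in the corticosterone library, a log2 ratio of 0.29 (0.18 to 0.39). The median log2 ratio was 0.40, against 0.02 over all genes of at least 20 CPM in that class, and it was 0.19 at a finer clustering resolution of 1.0. That resolution split these cells by library: a cluster of 980 vehicle and 21 corticosterone cells went unnamed, and the named clusters held 67 and 749 and 21 and 27 cells, so the 0.19 leaves out most vehicle cells of the class. Srebf2 had the highest log2 ratio, at 22.5 (19.8 to 25.5) and 39.0 (34.4 to 43.9) CPM, a log2 ratio of 0.79 (0.53 to 1.05). Of the 4 genes at 20 CPM or more, Srebf2 alone was past 1.5-fold higher, where 6.15% of 6554 genes were, and 0 were past it lower, where 4.91% were. Sqle had a ratio of 0.65 (0.16 to 1.14), Idi1 of 0.54 (0.18 to 0.91) and Cyp51 of 0.41 (0.07 to 0.76).

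Insig1, which had a ratio of -0.26 in microglia-like cells, was higher here, at 18.9 and 25.0 CPM with a log2 ratio of 0.40 (0.10 to 0.70). Msmo1 had 0.15 (-0.07 to 0.37) and Hmgcs1 0.01 (-0.28 to 0.29), where both were lower in microglia-like cells. Fdft1 had an interval below 0, at 17.5 and 12.99 CPM with a ratio of -0.43 (-0.81 to -0.06), and Lss had -0.36 (-1.04 to 0.30). Whether the classes respond differently was not tested, since 1 library per group gives no error for that difference.

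**Figure D4:**
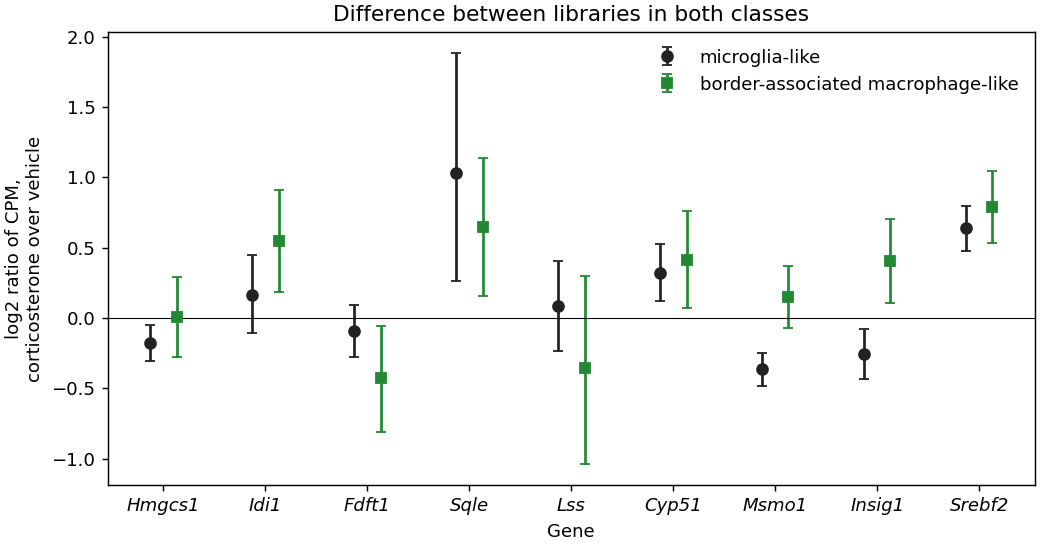
Log2 ratio of CPM, corticosterone over vehicle, for the 9 sterol genes in microglia-like cells (black circles) and border-associated macrophage-like cells (green squares), with exact 95% intervals from counting error and 1 library per group. Srebf2 is above 0 in both classes, at 0.64 and 0.79, and Insig1 is on opposite sides, at -0.26 and 0.40.

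The remaining classes held few cells. In neutrophil-like cells the sum was 129 and 121 CPM, with a median log2 ratio of -0.24 against -0.11 over all genes of that class, and Srebf2 stood at 22.3 and 21.7 CPM, a ratio of -0.04 (-0.63 to 0.55). Lss had 13 and 2 UMIs there, a ratio of -2.74 (-5.93 to -0.60). In erythroid-like barcodes the sum was 102 and 57.6 CPM from 51 and 24 UMIs, and Sqle had 0 UMIs in both libraries. Cluster 8, unnamed and led by class II MHC genes, had 191 and 89 cells and a sum of 139 and 213 CPM, a log2 ratio of 0.62 (0.32 to 0.92). Srebf2 in that cluster stood at 14.1 and 35.9 CPM, a ratio of 1.35 (0.49 to 2.23).

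Cluster 10, unnamed and led by Spp1 and Lpl, had 55 and 58 cells, a sum of 129 and 198 CPM and a ratio of 0.61 (0.04 to 1.21). Sqle there had 2 and 9 UMIs. Cluster 4, unnamed and shallow at a median of 1089.5 and 1260.5 UMIs, had sums of 86.2 and 84.0 CPM, with Srebf2 at 12.96 and 23.1 CPM, a ratio of 0.83 (0.03 to 1.71). The ratio of Srebf2 was thus above 0 beyond counting error in microglia-like and macrophage-like cells and clusters 4 and 8, and not in neutrophil-like cells, erythroid-like barcodes or cluster 10. The monocyte-like cells (28 and 59) and the endothelial-like cells (40 and 25) were too few to order. Srebf2 had 2 and 12 UMIs in the former, 13.4 (1.63 to 48.5) and 24.2 (12.5 to 42.2) CPM, and 6 and 3 UMIs in the latter.

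Ordering the 7 classes of at least 50 cells by level gave few firm steps: of 108 neighbouring pairs over the 9 genes and both libraries, 7 differed beyond counting error. Macrophage-like cells were first for 4 genes in the vehicle and 3 in the corticosterone library, with clusters 8 and 10 or neutrophil-like cells first for the others. Of the firm steps, Sqle in macrophage-like cells (10.5 CPM) lay above neutrophil-like cells (2.55 CPM) in the corticosterone library. Cyp51 in macrophage-like cells (19.1 CPM) lay above microglia-like cells (10.5 CPM), and Insig1 in cluster 8 (22.8 CPM) above microglia-like cells (10.6 CPM). Msmo1 in microglia-like cells lay above the shallow cluster 4 in both libraries.

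Genes whose level followed that of the sterol genes over clusters were sought by the correlation with the sum of the 8 genes other than Srebf2, over 20 points (10 clusters in each library, centred within the library) and 6365 genes. The closest gene outside the lists was Anxa5, a phospholipid-binding protein, with a Pearson r of 0.93. It also differed between the libraries in microglia-like cells, at 25.3 and 47.0 CPM, a log2 ratio of 0.89. The next were the respiratory chain and ATP synthase genes Cox7c (0.80), Uqcrq (0.80), Atp5md (0.78), Atp5e (0.78) and Uqcrh (0.77), whose ratios between the libraries lay between -0.18 and 0.06. Msmo1 and Hmgcs1, which are part of the sum and had the highest levels of the 8 genes in microglia-like cells, had r of 0.86 and 0.82. The 4 other synthesis genes at this level did not follow the sum closely: Ebp had 0.25, Lbr 0.17, Ggps1 0.0007 and Dhcr7 -0.07. A match to the sum is therefore not a match to the whole pathway. The points share library and depth, and the correlations are a description.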

How the data were processed

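For both libraries the authors deposited a matrix of UMI counts, genes by barcodes, that were not normalised: the values are whole numbers and the totals differ between cells. Per the submitters' processing notes, bcl2fastq 2.19 and the build GRCm38 were used, and the aligner, counter, annotation and cell calling are not given in the sources used here. Gene positions are from GENCODE M21 (GRCm38) and promoters from RefSeq.

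Barcodes with at least 500 UMIs, 300 genes and at most 20% mitochondrial UMIs were kept, 10500 of 10555 and 17883 of 18113, with 49325067 and 85103539 UMIs in all. Counts were scaled to 10000 per cell, and 2000 variable genes without the sterol pathway genes, 30 components and 15 neighbours entered Leiden clustering at resolution 0.5 (scanpy 1.11.5, leidenalg 0.10.2, Python 3.11.15). A cluster was named from at least 3 markers that 10% or more of its cells held, at 2 times the level of the rest, or as microglia-like where the microglia markers reached 0.5 of their level over all cells, as a geometric mean. A cluster stayed unnamed where markers of another class led its 10 top genes, or where its cells' depth relative to their library's median was under 33.3% at the median and those genes held no marker. Scrublet marked 0 barcodes in either library and is taken not to have worked, so no doublets were removed in the main values.

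UMIs were summed over the cells of a class in each library and divided by the class total to give CPM. With 1 library per group nothing was tested, and 95% intervals (scipy 1.17.1) cover counting error only. Without replicate libraries or stated animals, the spread between mice is unknown. The interval calculation was checked on simulated counts. Settings tried were edgeR 4.0.16 TMM factors, DESeq2 1.42.0 size factors (R 4.3.3), other limits on level, fold, depth and cell quality, other cluster resolutions, a rule per cell, equal weight per cell, removal of the 6% highest doublet scores, and leaving out the interferon-high sub-cluster or, chosen after seeing the data, the sub-cluster with neutrophil granule genes. Repeated symbols (52) were read from their first row. The 9 genes, the gene lists, the markers and the naming limits were chosen with earlier results of these data known. The text names the 9 genes, genes of the synthesis, SREBP control and SREBP2 target lists (some of these are not reported here, and the counts and medians cover the whole lists), the highest and lowest gene of each other list together with Apoe, Abca1, Abcg1 and Ch25h, and the 6 most similar genes.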

Additional observations from a re-analysis of the deposited data

Results flagged for a closer look

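Insig1, which encodes the protein that retains SREBP2 in the endoplasmic reticulum, lay on opposite sides of 0 in the 2 largest named classes. Its log2 ratio of corticosterone over vehicle was -0.26 in microglia-like cells and 0.40 in border-associated macrophage-like cells, each beyond counting error, a difference of 0.662. With edgeR TMM or DESeq2 size factors the microglia-like ratio was -0.17 or -0.15 and its interval included 0. The difference was not tested, since each group is 1 library. No other gene of the 9 had this pattern between these classes.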

How the results depend on the processing

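With 1 library per group, no library could be left out, and no paired analysis was possible because each group holds a single library. Under 13 other settings the ratios of Hmgcs1, Cyp51, Msmo1, Insig1 and Srebf2 in microglia-like cells kept their direction, and Srebf2 ranged from 0.48 to 0.75. The other 4 changed direction under 1 setting each, which was a change within microglia-like cells for Fdft1 alone. Over all cells of a library, whatever their class, Sqle was -0.13, Idi1 -0.04, Lss -0.12 and the sum of the 9 genes -0.091, and Fdft1 was 0.01 with DESeq2 size factors. The sum was 0.070 with edgeR TMM factors and 0.088 with DESeq2 size factors, so its direction turned under both. Under a rule per cell, Sqle was 0.10, Hmgcs1 -0.34 and Insig1 -0.52, and in cells of 2000 to 5000 UMIs Fdft1 was -0.33, and the causes were not tested.

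The count of the 9 genes past 1.5-fold higher was 0 at a mean of 20 CPM, 1 at 5 CPM and 2 with no limit on level, where more genes are counted and 10.2% of all genes were past it. At a looser fold limit, 1 gene, Msmo1, was past it lower, where 13.5% of genes were. List medians turned with edgeR TMM and DESeq2 size factors for SREBP control (0.079 and 0.10) and other SREBP2 targets (0.015 and 0.033), at 5 CPM for other SREBP2 targets (0.063) and the fatty acid list (0.071), and with no limit on level for other SREBP2 targets (0.41), the fatty acid list (0.17) and the efflux and LXR list (0.013). Thinned to 2000 UMIs, the ratio of the Lss shares of cells was -0.045. Depth limits Sqle most, at 17 and 77 UMIs.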
